A study of Mus musculus with 4 samples.

Results

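The interleukin module was taken as every gene symbol in the count tables that begins with Il and a digit, which gave 84 symbols of 26214. By known function 37 encode ligands or ligand subunits, 40 encode receptor chains, 4 encode antagonists or soluble binding proteins, and 3 have other roles. Polyadenylated RNA was sequenced from mouse colon cancer tissue, with 2 libraries of the genotype Gsk3b IEC-/- and 2 of the genotype Gsk3b IEC+/+, where IEC stands for the intestinal epithelial cell. All tumours, in both groups, had been raised with AOM/DSS, the carcinogen azoxymethane with the colitis-inducing agent dextran sulfate sodium. The study asked how loss of the kinase GSK3B from the intestinal epithelium alters the tumour transcriptome. No strain, age, Cre driver or deleted exon is given in the labels. They also leave unsaid whether each library is a mouse of its own, so the p-values reflect no more than the scatter among these 4 libraries. The groups are tumours of whole tissue, in which fewer cells of a type and less RNA per cell cannot be told apart.

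Interleukins are secreted proteins by which leukocytes, epithelium and stroma signal to each other, and each acts through a complex of receptor chains. Several chains are shared, such as the common gamma chain of the IL-2 family, gp130 of the IL-6 family and the accessory chain of the IL-1 family. In the injured colon, IL-6, IL-11 and IL-22 drive STAT3 in epithelial cells, IL-1 and IL-17 drive inflammatory gene expression, and IL-33 acts on regulatory T cells, innate lymphoid cells and mast cells. Secreted antagonists and decoy receptors limit several of these ligands.

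Total counts were 25472503 to 27218515 per library, and interleukin genes took 0.116% and 0.135% of them in the IEC-/- libraries, against 0.165% and 0.160% in the IEC+/+ libraries. Gsk3b itself had 152 and 149 CPM (counts relative to the TMM-scaled library size) in IEC-/- and 170 and 157 in the IEC+/+ libraries. Which exons were removed is not stated, so this level does not check the genotype. Of 10 epithelial markers, chosen with earlier results of these data known, all 10 were tested and 0 were absent from all libraries. Their summed level was 6530 and 6170 CPM in the IEC-/- libraries, against 11800 and 10100 in the IEC+/+ libraries. All 10 log2 fold changes were negative, but they ran from -0.07 for Krt18, with overlapping groups, to -2.86 for Krt20. Epcam had 1270 and 1040 CPM in IEC-/- and 1400 and 1440 in IEC+/+ (-0.30). Krt8 gave 1620 and 1420 CPM of the sums in IEC-/- and 3300 and 2610 in IEC+/+ (-0.96). The 2 IEC-/- libraries stood apart from each other in neutrophil markers, with sums of 208 and 1340 CPM, against 243 and 378 in the IEC+/+ libraries. Ltf, a granule protein gene, gave 10.6 and 885 CPM of those sums in IEC-/- and 5.29 and 26.8 in IEC+/+. The 1 neutrophil marker called went the other way, Ly6g with 12.2 and 15.2 CPM in IEC-/- and 66.4 and 62.5 in IEC+/+ (log2 fold change -2.23, SE 0.16, edgeR adjusted p = 0.0322). Summed monocyte and macrophage markers were 1550 and 1160 CPM in IEC-/- and 1020 and 955 in IEC+/+, and summed T cell markers 71.0 and 75.5 CPM in IEC-/- and 60.4 and 49.4 in IEC+/+. Log2 fold changes were positive for 8 of 11 neutrophil, 10 of 13 monocyte and macrophage and 9 of 10 T cell markers tested, and no marker of these 3 lists was at 0 in all libraries. The part of these differences in the interleukin values was not tested.

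In the IEC-/- tumours the receptor chains Il1rl1, Il22ra1 and Il13ra1, the antagonist Il1rn and the ligand Il7 had lower levels with groups that did not overlap, but 0 of the 58 interleukin genes tested were called. A call was an edgeR quasi-likelihood p under 0.05 after Benjamini-Hochberg adjustment over 16637 genes, which 0.884% of all genes reached. The smallest adjusted p of the module was 0.0525, for Il13ra1. At an unadjusted p under 0.05 there were 14 interleukin genes, or 24.1% of those tested, beside 16.6% of all genes. They were 6 higher in IEC-/- (10.3%, beside 7.50% of all genes) and 8 lower (13.8%, beside 9.12%). Il12b, among the 6 higher, passed the expression filter only through the IEC-/- libraries. DESeq2 on the same counts called 0 members higher and 5 lower (8.62% of 58, beside 4.87% of all genes), which were Il13ra1, Il1rl1, Il1rn, Il22ra1 and Il7. In each fit that follows, 1 library was left in a group and was assumed to vary like the pair of the other group. Without IEC-/- replicate 2 edgeR called 8 members lower (13.3% of 60 tested, beside 2.33% of all genes). Without IEC-/- replicate 1 it called 3 lower (4.92% of 61, beside 2.24% of all genes) and 1 higher (beside 2.00% of all genes). Without either IEC+/+ library it called 0 genes in the whole table, so that 0 is not particular to the interleukins.

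The medians of ligands and receptors had opposite signs. The median log2 fold change was -0.17 over the 18 ligands tested and 0.25 over the 35 receptor chains tested, beside 0.01 over all genes. Among ligands, 1 was higher and 7 were lower in IEC-/- with groups that did not overlap, and among receptors 13 were higher and 7 lower. In the whole module the groups did not overlap for 31 genes (53.4%), 16 higher (27.6%) and 15 lower (25.9%), beside 48.0% of all genes, 24.0% higher and 24.1% lower, so the module as a whole was close to the background. Library by library, the median deviation of the ligands from each gene's mean, on a log2 scale, was -0.24 and -0.15 in the IEC-/- libraries, against 0.19 and 0.16 in the IEC+/+ libraries. For receptors it was -0.08 and 0.21 in IEC-/-, against -0.09 and -0.12 in IEC+/+, so IEC-/- replicate 1 lay close to the IEC+/+ libraries. Without IEC-/- replicate 2 the receptor median was -0.0026, and with no expression filter, which adds ligands with few counts, the ligand median was 0.11. No test of ligands against receptors was made, since the members were chosen with earlier results known.

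**Figure D1:**
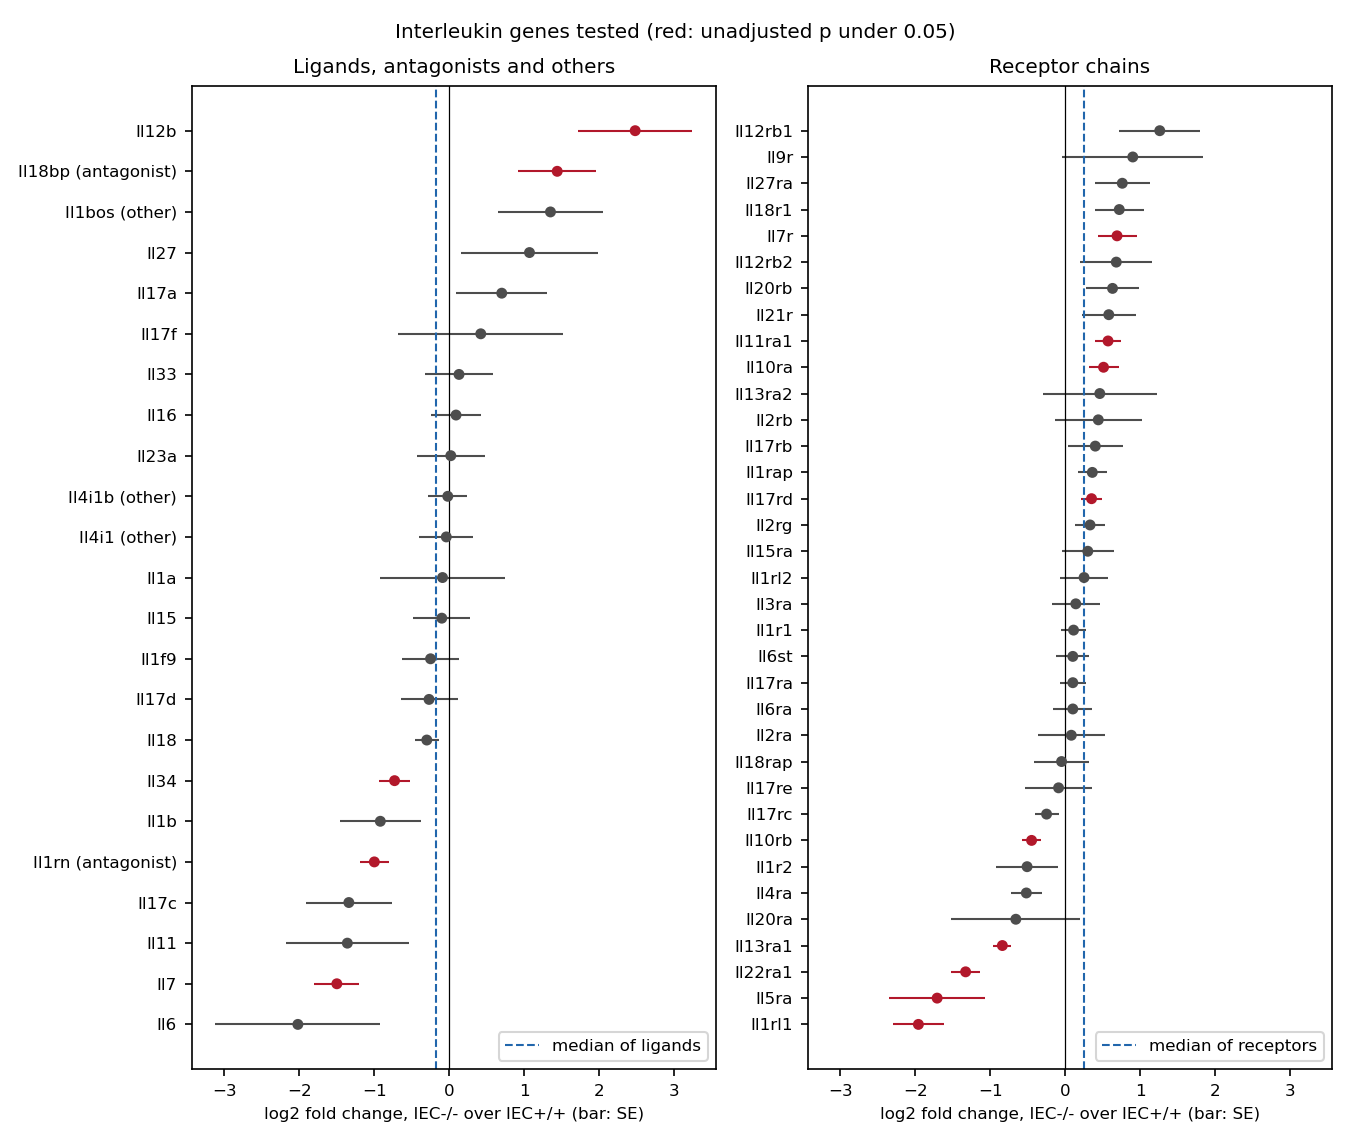
Log2 fold change of IEC-/- over IEC+/+ for the 58 interleukin genes tested (horizontal axis, bars give the SE), with ligands, antagonists and others on the left and receptor chains on the right. Red marks the 14 genes with an unadjusted p under 0.05, and the dashed lines at -0.17 and 0.25 are the medians of the ligands and of the receptors.

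Levels of different genes were compared per kilobase of exon. Over all 4 libraries Il1b, the inflammasome-processed ligand IL-1 beta, had the highest mean of the module at 35.6 CPM per kilobase. Among ligands it was followed by Il18, another inflammasome product, at 30.9 CPM per kilobase. The order of these 2 was reversed in IEC-/- replicate 1 alone, where Il1b had 11.0 and Il18 had 30.0 CPM per kilobase. In IEC-/- replicate 2 Il1b had 38.3 and Il18 had 25.4. In IEC+/+ Il1b had 42.2 and 50.9 and Il18 had 36.9 and 31.4. Il33, an alarmin of barrier and stromal cells, had 18.1 and Il1f9, which encodes the epithelial alarmin IL-36 gamma, had 15.9 CPM per kilobase. The highest receptor chains were Il13ra1 at 29.1, Il1rl1 at 26.2, Il22ra1 at 19.6 and Il4ra at 19.5 CPM per kilobase. Within IEC-/- alone Il1rl1 had 7.13 and 14.4 CPM per kilobase, below Il13ra1 at 21.6 and 20.0, while in IEC+/+ it had 44.7 and 38.6, above Il13ra1 at 38.0 and 36.8. The order of these receptors thus differed between the groups.

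**Figure D2:**
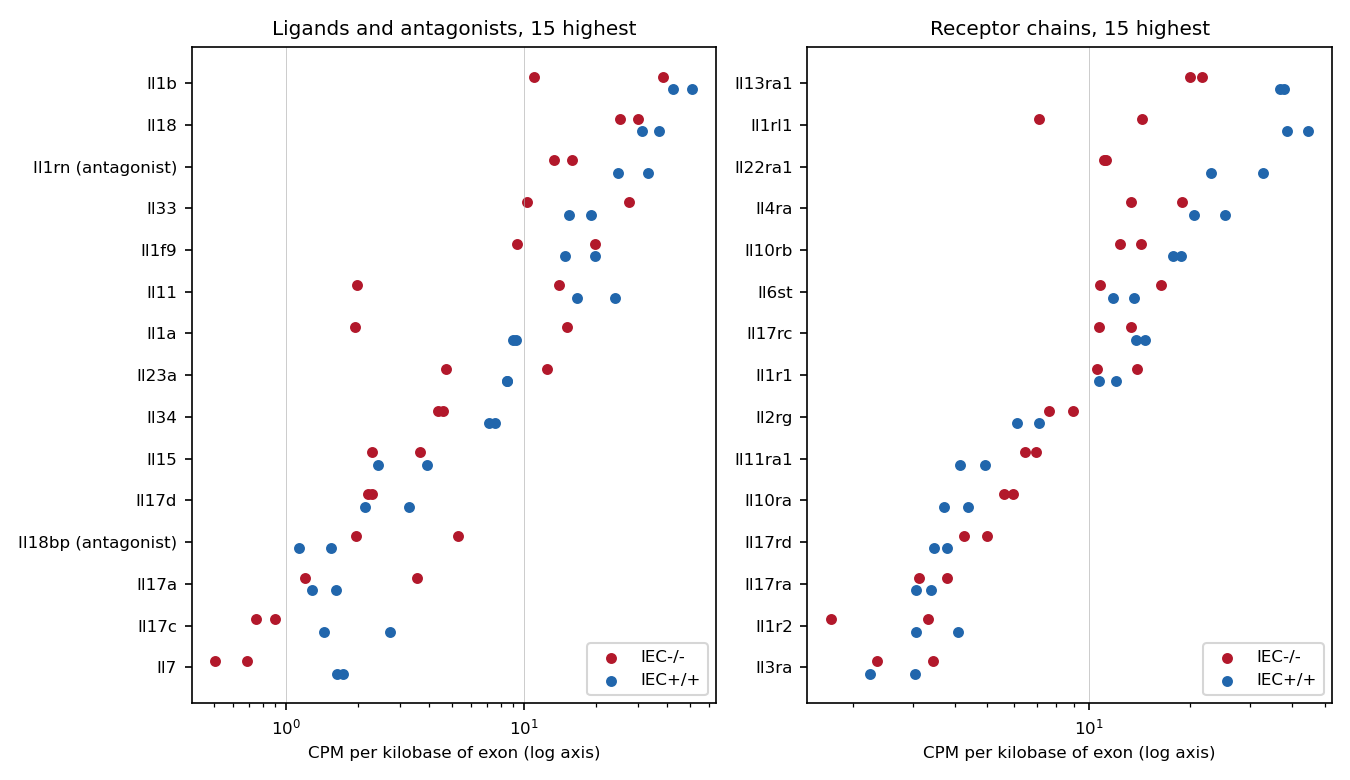
Level in CPM per kilobase of exon (horizontal log axis) in each of the 4 libraries for the 15 highest ligands and antagonists and the 15 highest receptor chains, with IEC-/- in red above IEC+/+ in blue. Il1rl1 and Il22ra1 show the widest separation of the groups among the high receptors, and Il1b, Il11 and Il1a show a wide gap between the IEC-/- libraries.

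Among receptors, Il1rl1 encodes ST2, the receptor of IL-33, which is made both as a membrane receptor and as a soluble decoy (chromosome 1, 40429570 to 40465415, plus strand, GENCODE M21 on GRCm38). Its level was 49.1 and 99.0 CPM in the IEC-/- libraries, against 308 and 266 in the IEC+/+ libraries. Both IEC-/- libraries lay far below both IEC+/+ libraries, and they differed from each other more than the IEC+/+ libraries did. The log2 fold change was -1.96 (SE 0.34), a level 3.88-fold lower in IEC-/- (edgeR adjusted p = 0.0731). Without IEC-/- replicate 1 the log2 fold change was -1.55 and without IEC-/- replicate 2 it was -2.55, each from 1 IEC-/- library. Il1rl1 was not called without either IEC+/+ library. In the alternatives with all 4 libraries its adjusted p ranged over 9.9e-08 (DESeq2) to 0.0748 (edgeR with RLE scaling). The count sums the membrane and soluble forms, which cannot be told apart in it. Il33 had 29.6 and 79.9 CPM in IEC-/- and 44.7 and 55.1 in IEC+/+, so the IEC-/- libraries lay on either side of the IEC+/+ libraries (log2 fold change 0.13, SE 0.45, edgeR adjusted p = 0.921). Per kilobase, the ratio of Il33 to Il1rl1 was 1.44 and 1.92 in IEC-/-, against 0.347 and 0.495 in IEC+/+. Markers of mast cells, which can carry ST2, summed to 100 and 166 CPM in IEC-/- and 89.2 and 99.6 in IEC+/+, with 8 of 9 log2 fold changes positive and Cma1 at -0.43. Of the 8 innate and NK lymphocyte markers tested, 4 had positive and 4 had negative log2 fold changes. Gata3 had -0.28 and Areg -1.44 (edgeR adjusted p = 0.79 and 0.166), while Id2 had 0.35 and Klrk1 1.37 (edgeR adjusted p = 0.471 and 0.439). Foxp3, a marker of regulatory T cells, had 0.28, higher in IEC-/- without overlap between groups (edgeR adjusted p = 0.564). The part of these cell types in the Il1rl1 values was not tested.

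The sequence before each of the 2 RefSeq starts of Il1rl1 is shown because the gene has the largest difference among the receptors and its forms are known to begin at separate promoters. Each line gives the 250 bases before the start, 5′ to 3′ on the transcribed strand, from RefSeq on GRCm38.p6, for chr1:40429320-40429569 and chr1:40439379-40439628. Capitals mark matches, on both strands, to the motifs GATAAG (known for GATA factors), TGANTCA (for AP-1), TTCNNNGAA (for STAT factors) and CTTTGA (for TCF and LEF), and to the NF-kappaB motif, read as GGGA, then any 2 bases, then TTCC. None of the 5 motifs is contained in another.
Il1rl1 start 1: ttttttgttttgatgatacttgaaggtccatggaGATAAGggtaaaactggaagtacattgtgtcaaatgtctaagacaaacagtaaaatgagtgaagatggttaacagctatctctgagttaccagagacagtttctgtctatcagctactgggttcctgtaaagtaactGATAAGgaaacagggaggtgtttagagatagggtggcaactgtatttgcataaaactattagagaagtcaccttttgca
Il1rl1 start 2: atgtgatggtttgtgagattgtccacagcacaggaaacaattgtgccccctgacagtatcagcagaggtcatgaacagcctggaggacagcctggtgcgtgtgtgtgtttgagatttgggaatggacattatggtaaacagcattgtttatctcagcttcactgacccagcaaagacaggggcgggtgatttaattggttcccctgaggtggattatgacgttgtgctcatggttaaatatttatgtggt
The first window held 2 matches to GATAAG and the second held 0 matches to any of the 5 motifs. Of 32851 windows of this length before RefSeq starts, 6.55% held GATAAG, 6.75% TGANTCA, 1.21% the NF-kappaB motif, 7.02% TTCNNNGAA and 13.8% CTTTGA. A match is a run of letters and was not tested as a binding site.

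Il22ra1, the chain that confines IL-22 responses to epithelial and other non-haematopoietic cells, had 28.5 and 28.8 CPM in the IEC-/- libraries, against 84.6 and 59.0 in the IEC+/+ libraries. The IEC-/- libraries were nearly equal and both lay below the IEC+/+ libraries (2.51-fold lower, log2 fold change -1.33, SE 0.19, edgeR adjusted p = 0.0584). Il10rb, its partner chain and also a chain of the IL-10 receptor, had 54.3 and 47.1 CPM in IEC-/- and 67.5 and 71.1 in IEC+/+ (-0.45, SE 0.13, edgeR adjusted p = 0.184). The ligand Il22 was counted 0 and 4 times in IEC-/- and 0 and 2 times in IEC+/+, and the soluble IL-22 binding protein gene Il22ra2 3 and 0 times in IEC-/- and 6 and 8 times in IEC+/+. Il10ra, the leukocyte chain of the IL-10 receptor, went the other way, with 19.6 and 20.8 CPM in IEC-/- and 15.3 and 13.0 in IEC+/+ (0.51, SE 0.20, edgeR adjusted p = 0.287). Il20ra and Il20rb, the chains for IL-19, IL-20 and IL-24, had log2 fold changes of -0.66 and 0.63 (edgeR adjusted p = 0.775 and 0.438).

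The 250 bases before the start of Il22ra1 (chr4:135727909-135728158, plus strand) are shown as those of the epithelial receptor chain with the closest pair of IEC-/- libraries, with motifs in capitals as above.
Il22ra1: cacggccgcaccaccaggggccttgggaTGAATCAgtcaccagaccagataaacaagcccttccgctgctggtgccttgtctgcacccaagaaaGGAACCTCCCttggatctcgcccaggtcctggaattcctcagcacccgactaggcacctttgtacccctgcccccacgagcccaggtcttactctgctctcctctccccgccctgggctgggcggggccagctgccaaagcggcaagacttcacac
This window held 1 match to TGANTCA and 1 to the NF-kappaB motif, which lies on the opposite strand, and 0 to the other 3 motifs.

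Il13ra1 and Il4ra together form the receptor through which non-haematopoietic cells respond to IL-4 and IL-13. Il13ra1 had 80.4 and 74.3 CPM in the IEC-/- libraries, against 141 and 136 in the IEC+/+ libraries, a narrow spread within each group and no overlap (1.80-fold lower, log2 fold change -0.84, SE 0.12, edgeR adjusted p = 0.0525). Without IEC-/- replicate 1 the log2 fold change was -0.91 and without IEC-/- replicate 2 it was -0.79, each from 1 IEC-/- library. Il13ra1 was not called without either IEC+/+ library. In the alternatives with all 4 libraries its adjusted p ranged over 9.15e-07 (DESeq2) to 0.056 (edgeR with the replicate block). Il4ra had 79.7 and 113 CPM in IEC-/- and 123 and 152 in IEC+/+, again without overlap but with a wider spread (-0.52, SE 0.21, edgeR adjusted p = 0.308). The decoy chain Il13ra2 was low, at 0.719 and 2.59 CPM in IEC-/- and 0.772 and 1.63 in IEC+/+. The ligand Il4 was counted at most 3 times in any library and Il13 at most 5 times, so a difference in either was not detectable at this depth. Il5ra, the eosinophil and B cell receptor chain for IL-5, had 0.216 and 0.496 CPM in IEC-/- and 1.27 and 1.06 in IEC+/+ (-1.71, SE 0.64, edgeR adjusted p = 0.276). Il3ra, the IL-3 receptor chain, had 0.14 with overlapping groups, and summed eosinophil markers, of which Ear1 was at 0 in all 4 libraries, were 11.2 and 48.2 CPM in IEC-/- and 63.8 and 57.6 in IEC+/+. Most of that sum was Alox15, with 9.85 and 41.3 CPM in IEC-/- and 62.4 and 55.5 in IEC+/+, while the eosinophil granule gene Prg2 had 0.575 and 5.72 CPM in IEC-/- and 1.00 and 1.48 in IEC+/+.

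Il4ra apart, which also pairs with the common gamma chain and was grouped with Il13ra1 above, the tested receptor chains of the common gamma chain and IL-12 families had positive log2 fold changes. These chains are carried mainly by leukocytes. The 7 common gamma chain family values ran from 0.08 for Il2ra to 0.90 for Il9r, which had 2 to 20 counts per library. As higher, 1 of 7 reached an unadjusted edgeR p under 0.05, beside 7.50% of all genes. That gene was Il7r, the IL-7 receptor chain of T cells and innate lymphoid cells, with 8.99 and 9.26 CPM in IEC-/- and 6.14 and 5.18 in IEC+/+ (0.69, SE 0.26, edgeR adjusted p = 0.278). Il2rg, the common gamma chain, had 18.2 and 21.5 CPM in IEC-/- and 17.0 and 14.6 in IEC+/+ (0.33, SE 0.20, edgeR adjusted p = 0.495). Il15ra, Il2rb and Il21r, the other chains of the family, had 0.30, 0.44 and 0.58, and the sign of Il2ra and Il2rb turned when some single libraries were left out. In the IL-12 family, Il12rb1, Il12rb2 and Il27ra had log2 fold changes of 1.26, 0.68 and 0.76 without overlap between groups (edgeR adjusted p = 0.327, 0.55 and 0.393). Without IEC-/- replicate 2 the value of Il12rb2 was 0.081. Il18r1 had 4.17 and 4.04 CPM in IEC-/- and 2.39 and 2.57 in IEC+/+, while its partner Il18rap had overlapping groups (log2 fold changes of 0.72 and -0.05). Summed T cell markers and summed monocyte and macrophage markers, given above, were also higher in both IEC-/- libraries. Lyz2 gave 797 and 504 CPM of the macrophage sums in IEC-/- and 396 and 349 in IEC+/+. Of 10 T cell markers tested 9 had positive log2 fold changes. Among these 10, Cd3d, Cd2, Cd28 and Cd4 had 0.10, 0.10, 0.13 and -0.05, with overlapping groups. The part of either cell type in the receptor values was not tested.

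The receptor chains of IL-17, of IL-6 and IL-11, and of IL-1 itself had log2 fold changes between -0.51 and 0.57. In the IL-17 family, Il17ra, the shared chain, had 27.2 and 32.9 CPM in IEC-/- and 26.5 and 29.3 in IEC+/+, and its partner Il17rc had 28.7 and 35.5 CPM in IEC-/- and 39.3 and 36.9 in IEC+/+ (log2 fold changes 0.10 and -0.25). Il17rd, also an inhibitor of FGF signalling, had 54.7 and 46.9 CPM in IEC-/- and 38.1 and 41.5 in IEC+/+ (0.35, SE 0.14, edgeR adjusted p = 0.287). The IL-25 receptor chain Il17rb and the IL-17C receptor chain Il17re had 0.40 and -0.09. In the IL-6 family, Il6st, which encodes gp130, had 182 and 120 CPM in IEC-/- and 151 and 131 in IEC+/+, and Il6ra 7.19 and 8.77 CPM in IEC-/- and 7.14 and 7.72 in IEC+/+, so both genes overlapped between groups. Il11ra1, the IL-11 receptor chain, had 28.9 and 31.1 CPM in IEC-/- and 22.0 and 18.5 in IEC+/+ (0.57, SE 0.17, edgeR adjusted p = 0.201). It has a near-identical copy, Il11ra2, which is listed at 0 in all 4 libraries, and how reads were shared between the copies is not given in the sources used here, so its value is uncertain. Of the IL-1 receptor chains, Il1r1, the signalling receptor, had 67.2 and 88.4 CPM in IEC-/- and 76.5 and 68.0 in IEC+/+, and Il1rap, its accessory chain, 18.3 and 17.5 CPM in IEC-/- and 13.5 and 14.5 in IEC+/+. The decoy receptor Il1r2 and the IL-36 receptor Il1rl2 had log2 fold changes of -0.51 and 0.25, with overlapping groups.

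**Figure D3:**
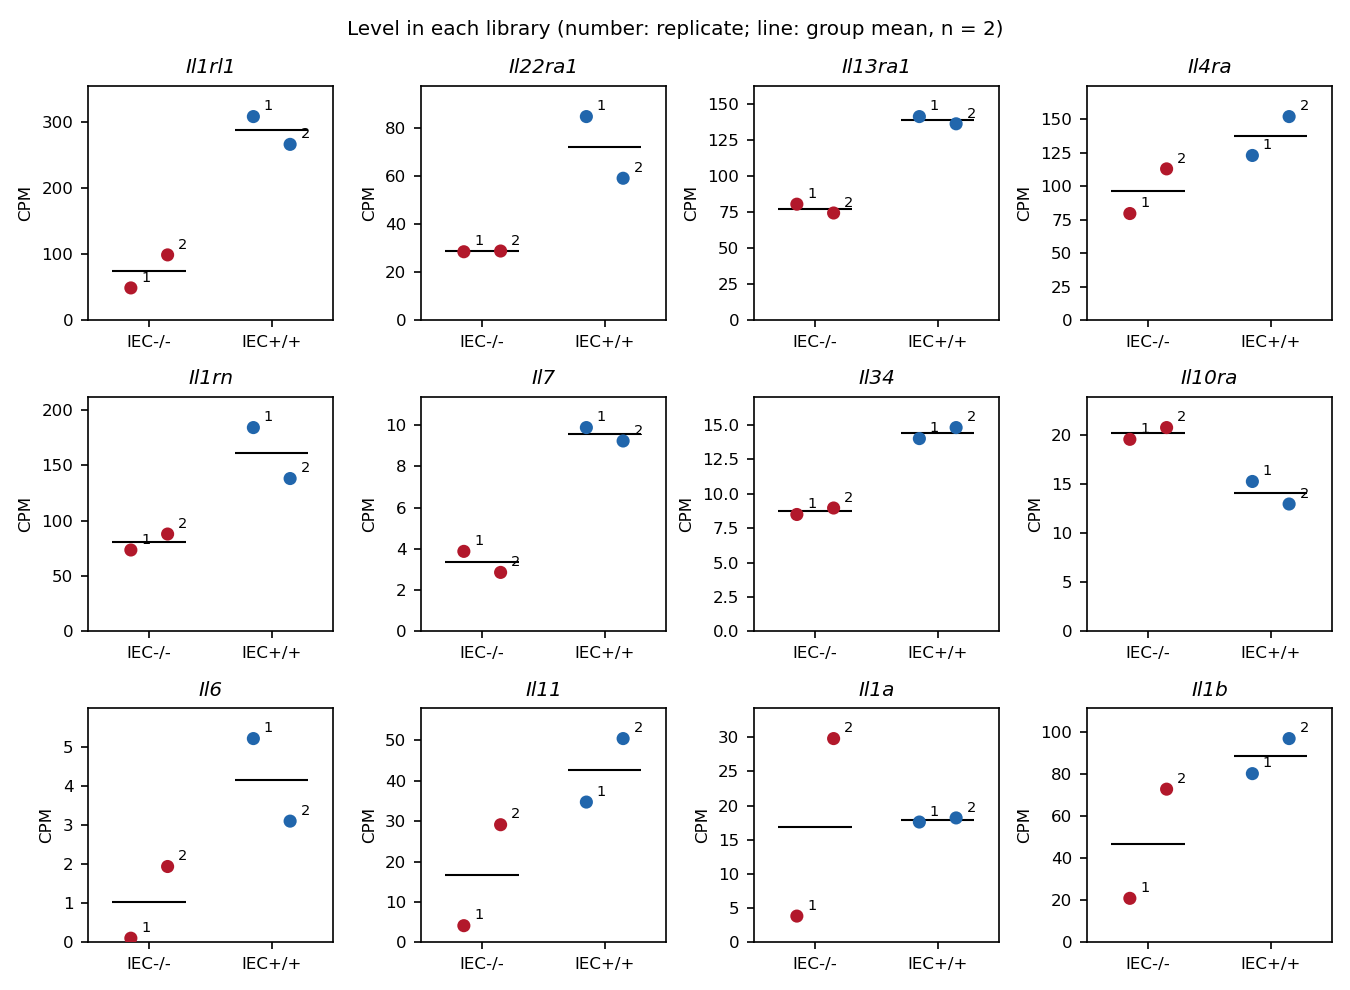
Level in CPM (vertical axis, from 0, scaled for each gene) of 12 interleukin genes in each library, with IEC-/- left of IEC+/+, numbers naming the replicate and lines the group means (n = 2). The upper and middle rows hold genes whose groups do not overlap, and in the bottom row IEC-/- replicate 1 is below all other libraries in Il6, Il11, Il1a and Il1b.

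Among ligands, Il7, a survival factor of lymphocytes, and Il34, one of macrophages, had lower values in both IEC-/- libraries. Il7, the ligand of the Il7r chain described above, had 3.88 and 2.86 CPM in IEC-/-, against 9.88 and 9.23 in IEC+/+ (2.83-fold lower, log2 fold change -1.50, SE 0.30, edgeR adjusted p = 0.0991). The ratio of Il7 to Il7r per kilobase was 0.355 and 0.254 in IEC-/-, against 1.32 and 1.47 in IEC+/+. Il34, a ligand of the macrophage receptor CSF1R, had 8.49 and 8.96 CPM in IEC-/-, against 14.0 and 14.8 in IEC+/+ (-0.73, SE 0.21, edgeR adjusted p = 0.196). Csf1, the other ligand of that receptor, had 81.3 and 62.7 CPM in IEC-/- and 43.7 and 47.9 in IEC+/+ (0.65, SE 0.16, edgeR adjusted p = 0.146), so the 2 ligands had opposite signs. Summed fibroblast markers, of cells known to make several of these ligands, were 2390 and 2070 CPM in IEC-/- and 3590 and 2220 in IEC+/+, and their part in these values was not tested.

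The inflammation-induced ligands Il6, Il11, Il1a and Il1b separated the IEC-/- libraries from each other. Il6 had 0.108 and 1.94 CPM in IEC-/-, from 3 and 51 counts, against 5.21 and 3.10 in IEC+/+ (log2 fold change -2.02, SE 1.1, edgeR adjusted p = 0.431). Il11, a gp130 cytokine of fibroblasts and epithelium, had 4.14 and 29.1 CPM in IEC-/-, against 34.7 and 50.4 in IEC+/+ (-1.36, SE 0.82, edgeR adjusted p = 0.478). In both genes the IEC-/- libraries lay below the IEC+/+ libraries, and replicate 1 lay far below replicate 2. Per kilobase, the ratio of Il11 to Il11ra1 was 0.308 and 2.01 in IEC-/-, against 3.39 and 5.83 in IEC+/+, and that of Il6 to Il6ra 0.0534 and 0.793 in IEC-/-, against 2.6 and 1.43 in IEC+/+. Il1b had 21.0 and 73.0 CPM in IEC-/- and 80.4 and 97.1 in IEC+/+ (-0.92, SE 0.54, edgeR adjusted p = 0.472). Il1a, the alarmin IL-1 alpha, had 3.85 and 29.8 CPM in IEC-/- and 17.6 and 18.2 in IEC+/+, so the IEC-/- libraries lay on either side of the other group (-0.09, SE 0.84, edgeR adjusted p = 0.976). Without IEC-/- replicate 2, the log2 fold changes were -5.21 for Il6, -3.37 for Il11, -2.08 for Il1b and -2.22 for Il1a. That fit keeps only IEC-/- replicate 1, the library in which these 4 genes were lowest, so the lower values follow from the choice of library. Among all alternatives their adjusted p reached 0.818, 0.797, 0.774 and 0.992. The value for Il6 without IEC-/- replicate 2 rests on 3 counts in IEC-/-. Without IEC-/- replicate 1, Il1a had 0.72 (adjusted p = 0.138). Neutrophil markers differed between the same 2 IEC-/- libraries, as given above. Il1b overlaps its antisense gene Il1bos, whose level was 0.540 and 1.33 CPM in IEC-/- and 0.309 and 0.416 in IEC+/+, and since no source used here says that strand was used in counting, reads of the overlap cannot be told apart.

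The windows before the Il6 start (chr5:30012864-30013113, plus strand) and the second RefSeq start of Il11 (chr7:4778142-4778391, minus strand) are shown as those of the ligands of Il6ra and Il11ra1, printed and marked as before.
Il6: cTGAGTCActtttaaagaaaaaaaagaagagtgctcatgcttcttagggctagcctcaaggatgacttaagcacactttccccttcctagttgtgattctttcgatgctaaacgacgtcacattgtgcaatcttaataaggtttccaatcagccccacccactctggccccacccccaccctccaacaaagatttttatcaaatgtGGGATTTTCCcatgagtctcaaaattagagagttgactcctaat
Il11 start 2: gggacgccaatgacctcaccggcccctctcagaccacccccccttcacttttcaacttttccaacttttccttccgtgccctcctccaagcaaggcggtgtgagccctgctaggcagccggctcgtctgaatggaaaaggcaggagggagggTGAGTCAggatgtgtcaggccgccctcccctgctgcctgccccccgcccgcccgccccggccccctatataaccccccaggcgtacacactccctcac
The Il6 window held 1 match to TGANTCA and 1 to the NF-kappaB motif, and the Il11 window held 1 match to TGANTCA. The window before the first Il11 start, not printed, held 0 matches to the 5 motifs, as did that of Il1b.

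Among the other ligands, Il18 had lower values in IEC-/- without overlap, at 30.9 and 26.2 CPM in IEC-/- and 38.1 and 32.4 in IEC+/+ (log2 fold change -0.30, SE 0.16, edgeR adjusted p = 0.438). Il23a, a subunit of IL-23, had 28.1 and 10.5 CPM in IEC-/- and 19.0 and 19.0 in IEC+/+, and Il1f9 32.6 and 15.3 CPM in IEC-/- and 24.3 and 32.7 in IEC+/+, so in both genes IEC-/- replicate 1 was the higher of its group. Il12b, the subunit shared by IL-12 and IL-23, had 20 and 27 counts in IEC-/- and 2 and 6 counts in IEC+/+, or 0.719 and 1.03 CPM against 0.0772 and 0.227 CPM (2.48, SE 0.76, edgeR adjusted p = 0.208). Its value rests on few counts, and Il12b passed the expression filter only through the IEC-/- libraries, where it was the higher. Its log2 fold change, the highest of the module, has that limit. Il17a, the T cell and innate lymphoid cytokine, had 1.40 and 4.16 CPM in IEC-/- and 1.89 and 1.51 in IEC+/+ (0.70, SE 0.61, edgeR adjusted p = 0.63), and Il17f 0.42 with overlapping groups. The epithelial ligand Il17c had 0.540 and 0.648 CPM in IEC-/- and 1.04 and 1.97 in IEC+/+ (-1.34, SE 0.57, edgeR adjusted p = 0.327). Il15, Il16, Il17d and Il27 had log2 fold changes of -0.10, 0.09, -0.27 and 1.07 with overlapping groups.

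Of the 4 antagonists, 2 could be tested and went in opposite directions. Il1rn, the IL-1 receptor antagonist, had 73.5 and 87.9 CPM in IEC-/-, against 184 and 138 in IEC+/+, with both IEC-/- libraries below both IEC+/+ libraries (1.99-fold lower, log2 fold change -1.0, SE 0.19, edgeR adjusted p = 0.0872). Per kilobase, the ratio of Il1rn to the sum of Il1a and Il1b was 1.03 and 0.298 in IEC-/-, against 0.649 and 0.414 in IEC+/+, so the IEC-/- libraries lay on either side. Il18bp, the secreted binding protein of IL-18, had 5.97 and 16.0 CPM in IEC-/-, against 4.67 and 3.41 in IEC+/+ (1.44, SE 0.52, edgeR adjusted p = 0.263). Il18bp had a log2 fold change of 1.98 without IEC-/- replicate 1 and of 0.56 without IEC-/- replicate 2, each from 1 IEC-/- library. Its adjusted p ranged up to 0.694 among all alternatives. The ratio of Il18bp to Il18 was 0.0657 and 0.208 in IEC-/-, against 0.0417 and 0.036 in IEC+/+.

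A further 26 members were below the expression filter and were not tested, 19 of them ligands. Of these, 10 had 0 counts in all 4 libraries: the ligands Il2, Il3, Il9, Il17b, Il20, Il25 and Il31, the receptor chains Il11ra2 and Il1rapl2 and the IL-36 antagonist Il1f5. A count of 0 allows a level of up to 3 counts per library, or 0.108 to 0.116 CPM. Il10 had the most counts among the rest, with 2 and 7 in IEC-/- and 10 and 19 in IEC+/+. It was followed by Il23r with 4 and 8 counts in IEC-/- and 15 and 0 in IEC+/+, Il1f6 with 5 and 11 against 3 and 3, and Il1f8 with 6 and 6 against 3 and 5. Il12a had 4 and 6 counts in IEC-/- and 6 and 2 in IEC+/+. The other untested members, Il5, Il13, Il4, Il19, Il21, Il22, Il22ra2, Il24, Il1f10, Il1rapl1 and Il31ra, had 1 to 17 counts over all 4 libraries. Among the genes of other function, Il4i1, which encodes an L-amino acid oxidase, and Il4i1b, which has no GENCODE M21 entry by symbol, had log2 fold changes of -0.04 and -0.02. How reads were shared between these 2 symbols is not given in the sources used here.

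Genes that act with the interleukins under other names were read from lists, and 0 of 20 tested among further ligands and receptors passed (unadjusted edgeR p under 0.05 for 1 higher and 0 lower). Over all genes, an unadjusted edgeR p under 0.05 was reached by 7.50% as higher and 9.12% as lower. The gp130 partner Lifr had 43.4 and 40.0 CPM in IEC-/- and 35.3 and 30.0 in IEC+/+, and Osmr 33.3 and 38.7 CPM in IEC-/- and 48.4 and 42.6 in IEC+/+ (log2 fold changes 0.35 and -0.34). Among 23 JAK, STAT and SOCS genes 0 passed (unadjusted edgeR p under 0.05 for 1 higher and 1 lower), with Stat3 at 231 and 295 CPM in IEC-/- and 270 and 296 in IEC+/+, and its feedback inhibitor Socs3 at 76.1 and 151 CPM in IEC-/- and 101 and 159 in IEC+/+. Among 17 MyD88, IRAK and IL-17 adaptor genes 0 passed (unadjusted edgeR p under 0.05 for 0 higher and 3 lower). Those 3 were Pycard, the inflammasome adaptor, with 32.6 and 36.3 CPM in IEC-/- and 62.4 and 56.7 in IEC+/+ (-0.79, SE 0.13, edgeR adjusted p = 0.0676), Irak4 and Casp1 (-0.69 and -0.45).

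Of genes known to respond to these cytokines, 1 passed, as lower, beside 0.763% of all genes called lower. Among 11 IL-22 response genes tested, 0 were higher at an unadjusted edgeR p under 0.05, beside 7.50% of all genes. There were 4 lower, beside 9.12% of all genes. Of these Saa1, a serum amyloid A gene of the colonic epithelium, fell to 40.0 and 17.8 CPM in IEC-/-, against 232 and 226 in IEC+/+ (log2 fold change -2.99, SE 0.39, edgeR adjusted p = 0.0472). Its close paralog Saa2 had 0.252 and 0.152 CPM in IEC-/- and 2.35 and 2.19 in IEC+/+ (-3.46, SE 0.56, edgeR adjusted p = 0.0662), and how reads were shared between them is not given in the sources used here. Saa1 was no longer called without either IEC+/+ library (adjusted p = 0.424 and 0.24), where no gene of the table was called. Reg3b and Reg3g, antimicrobial lectins also induced by IL-22, had overlapping groups (-0.30 and 0.20). So did Saa3, S100a8 and S100a9 of the same list (0.68, 1.23 and 1.47). Of the 11 log2 fold changes 5 were positive and 6 negative. Among 12 IL-17 response genes 0 passed (unadjusted edgeR p under 0.05 for 0 higher and 1 lower). That gene was Pigr, the epithelial transporter of polymeric immunoglobulins, with 1060 and 618 CPM in IEC-/- and 2150 and 2110 in IEC+/+ (-1.34, edgeR adjusted p = 0.0976). Among 12 IL-4 and IL-13 response genes 0 passed (unadjusted edgeR p under 0.05 for 0 higher and 1 lower). That gene was Clca1, a goblet cell protein, with 40.8 and 68.8 CPM in IEC-/- and 1380 and 452 in IEC+/+ (-4.06, edgeR adjusted p = 0.0588). The epithelial markers had a median log2 fold change of -0.85, with 2 of 10 passing as lower, beside 0.763% of all genes. These were Krt20 and Lgals4, calls that also ended without either IEC+/+ library. The part of the epithelial markers in the response genes was not tested.

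**Figure D4:**
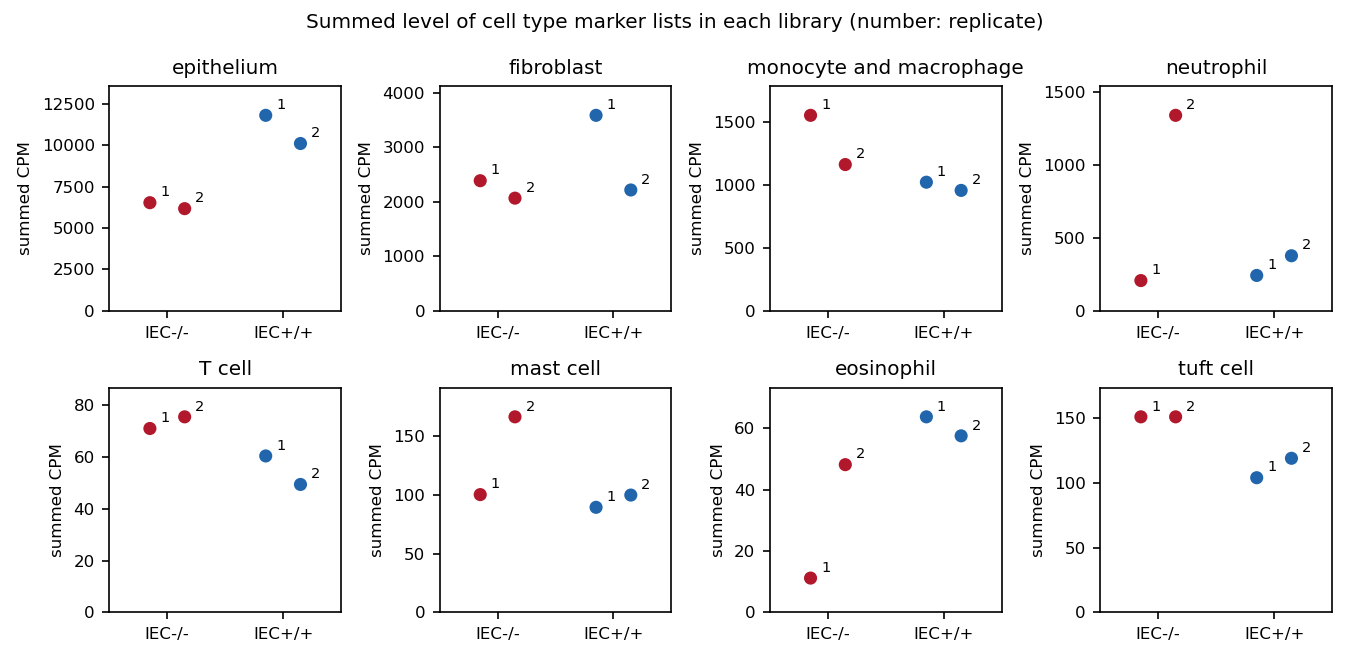
Summed CPM of 8 cell type marker lists in each library (vertical axis, from 0, scaled for each list), with IEC-/- left of IEC+/+ and numbers naming the replicate. Epithelial sums of 6530 and 6170 CPM in IEC-/- lie below those of 11800 and 10100 in IEC+/+, while the neutrophil sum of IEC-/- replicate 2, at 1340 CPM, of which Ltf gave 885, stands apart from the other 3 libraries.

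Among the marker lists of other cell types, edgeR called 0 genes of the mast cell, eosinophil, fibroblast, smooth muscle, endothelial, tuft cell, B and plasma cell, and innate and NK lymphocyte lists. Without adjustment, an edgeR p under 0.05 in the higher direction was reached by 3 of 9 mast cell and 2 of 7 tuft cell markers. It was also reached by 1 of 8 endothelial and 1 of 10 fibroblast markers. Lower were 2 of 9 smooth muscle, 1 of 10 fibroblast and 1 of 8 innate and NK lymphocyte markers. On the same measure 8 of 10 epithelial and 2 of 11 neutrophil markers were lower, and 5 of 13 monocyte and macrophage markers higher. Over all genes the shares were 7.50% higher and 9.12% lower. Summed tuft cell markers, of the cells known to make IL-25, were 151 and 151 CPM in IEC-/- and 104 and 119 in IEC+/+, of which Avil alone gave 127 and 121 CPM in IEC-/- and 77.7 and 96.8 in IEC+/+. The tuft cell kinase gene Dclk1 had overlapping groups (-0.31), and Il25 was at 0 in all 4 libraries. Summed B and plasma cell markers were 978 and 3480 CPM in IEC-/- and 1420 and 1650 in IEC+/+, so the IEC-/- libraries lay on either side. Innate and NK lymphocyte markers summed to 93.0 and 133 CPM in IEC-/- and 138 and 96.5 in IEC+/+, smooth muscle markers to 274 and 285 CPM in IEC-/- and 511 and 214 in IEC+/+, and endothelial markers to 307 and 283 CPM in IEC-/- and 247 and 240 in IEC+/+.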

How the data were processed

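Polyadenylated RNA of 4 mouse colon tumour libraries was measured, grouped by the sample titles. The authors deposited 1 table of raw read counts by gene symbol for each library. TopHat, limma, edgeR and the build mm10 appear in the submitters' processing notes, without versions or roles, and the counting tool, strand setting and annotation are not given in the sources used here. An NEBNext Ultra kit was used, per the labels' protocols.

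The counts went into edgeR 4.0.16 (R 4.3.3) with TMM scaling, the default expression filter (16637 of 20618 genes with a count were kept), quasi-likelihood F-tests on the genotype and Benjamini-Hochberg adjustment over all genes tested. SEs were derived from the F statistic. Alternatives were RLE scaling, no filter, DESeq2 1.42.0, a replicate block and leaving out each library. On simulated counts for this comparison, with 16637 genes, the test called 25.2%, 74.8%, 86.4% and 96.4% of genes changed by a log2 of 1, 2, 3 and 4, and 0.129% of unchanged genes. The simulation used the spread that edgeR estimated for each gene and pooled genes of all levels. These rates can be too high for genes whose replicates differ more than that estimate.

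Members, roles and lists were chosen with earlier results of these data known. Named genes were members with an unadjusted p under 0.05, the 4 highest per length in each class, and the other ligands and chains of their systems; Il16, Il4i1, Il4i1b, Il1bos and the cytokine response, signalling and marker genes named were chosen after their values were seen. Exon lengths and coordinates were those of GENCODE M21 (82 of 84 symbols), and promoter windows those of RefSeq (67 of 84). Intervals of counting error were not used, and the floor of 3 counts covers counting error only.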

Additional observations from a re-analysis of the deposited data

How the results depend on the processing

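With RLE scaling, all counts and medians stayed within 1.5 times or 1 SD of the values above, and edgeR called 0 interleukin genes. With no expression filter edgeR called 69 genes higher and 307 lower in IEC-/-, among them 0 and 3 interleukin genes (Il13ra1, Il22ra1 and Il1rl1). The ligand median was then 0.11 and its difference from the receptor median -0.082. DESeq2 called 482 genes higher and 811 lower, among them 0 and 5 interleukin genes. The 2 groups share replicate numbers, but nothing in the labels pairs the libraries, and the correlation of replicate differences across genes was 0.158 with 2 pairs. With the replicate number as a block, edgeR called 38 genes higher and 173 lower, 0 interleukin genes, and 2 higher and 10 lower members at an unadjusted p under 0.05. The ligand median under the block was -0.27, and Il23a and Il33 had log2 fold changes of -0.14 and -0.022. No interleukin gene changed its call under the block.

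Leaving out each library in turn, with the lone library assumed to vary like the pair, gave 0 to 344 genes higher and 0 to 398 lower, and 0 to 1 interleukin genes higher and 0 to 8 lower. At an unadjusted p under 0.05 there were 1 to 7 members higher and 5 to 14 lower. The ligand median ranged over -0.46 to -0.088, the receptor median over -0.0026 to 0.31 and the difference over -0.77 to -0.29. Log2 fold changes took both signs for 20 of the 54 members refitted one by one (Il16, Il4i1, Il4i1b and Il1bos were not), over the ranges Il13ra2 (-0.74 to 1.10), Il15 (-0.48 to 0.28), Il17a (-0.28 to 1.28), Il17d (-0.55 to 0.071), Il17f (-2.04 to 1.27), Il17ra (-0.043 to 0.22), Il17re (-0.75 to 0.36), Il18rap (-0.56 to 0.31), Il1a (-2.22 to 0.72), Il1f9 (-0.91 to 0.19), Il1r1 (-0.11 to 0.28), Il1rl2 (-0.074 to 0.66), Il20ra (-1.42 to 1.04), Il23a (-0.86 to 0.56), Il2ra (-0.32 to 0.63), Il2rb (-0.66 to 1.04), Il33 (-0.76 to 0.67), Il3ra (-0.18 to 0.38), Il6ra (-0.052 to 0.23), Il6st (-0.25 to 0.37). The causes were not tested. Ligands with few counts were not detectable as different at this depth.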
